A study of Mus musculus with 8 samples.

Results

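The let-7 family of microRNAs was examined in skeletal muscle of obese diabetic mice and of their non-diabetic controls. Its members were the main strands mmu-let-7a, mmu-let-7b, mmu-let-7c, mmu-let-7d, mmu-let-7e, mmu-let-7f, mmu-let-7g and mmu-let-7i (written without the species prefix below), chosen by name among the mouse miRNAs of the array, which gave 8 of 567. Total RNA of 4 diabetic and 4 control samples was labelled with the dye Cy3 and hybridised to one-colour Agilent miRNA arrays, 1 array per sample. The diabetic mice are C57BL/KsJ db/db, which inherit a defect of the leptin receptor throughout the body and become obese and diabetic, and the controls are C57BL/KsJ db+ mice. The labels contradict themselves on genotype. Title, description and group entry place the samples as given here, whereas the strain entry reads C57BL/KsJ db+ for every diabetic sample and C57BL/KsJ db/db for every control sample. Each direction below is diabetic minus control by title. Age, sex, the muscle sampled and whether each array came from its own animal are not stated, so the p-values measure the spread between these 8 samples, which may in part be technical.

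let-7 miRNAs are short RNAs that pair through their seed, bases 2 to 8 from the 5′ end, with sites in the 3′ ends of mRNAs and lower the output of those mRNAs. They accumulate as cells differentiate, and the RNA-binding protein LIN28 blocks the maturation of their precursors. In mice, the LIN28 and let-7 axis is known to act on insulin signalling and glucose uptake, with mRNAs of the insulin and IGF pathway among let-7 targets. mRNAs and proteins were not measured in this study.

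The mature sequences show how close the 8 members are, and therefore what the probes have to tell apart. All 8 matched RefSeq (GRCm38.p6), and miR-98, the relative with the same seed that could be tested, is shown with them. The seed is in capitals.
let-7a: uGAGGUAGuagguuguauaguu
let-7b: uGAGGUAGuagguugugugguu
let-7c: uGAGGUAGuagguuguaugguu
let-7d: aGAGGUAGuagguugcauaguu
let-7e: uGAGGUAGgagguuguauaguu
let-7f: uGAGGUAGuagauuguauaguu
let-7g: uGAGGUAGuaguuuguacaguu
let-7i: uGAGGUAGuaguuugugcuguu
miR-98: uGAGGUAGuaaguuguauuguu
All 9 sequences are 22 bases long and have 1 seed in common. Relative to let-7a, counting from 1 at the 5′ end, let-7e differs by U9G, let-7f by G12A and let-7c by A19G, so each of these 3 is 1 base away. let-7b carries A17G and A19G, and let-7d carries U1A and U16C. let-7g differs by G12U and U18C, and let-7i, the farthest, by G12U, A17G, U18C and A19U. Probe sequences were not used here, and whether a probe for 1 member also binds another was not tested.

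The members come from 11 hairpin genes. In GRCm38.p6, the let-7d, let-7f and let-7a mature sequences of Mirlet7d (chr13:48536078-48536099), Mirlet7f-1 (chr13:48537889-48537910) and Mirlet7a-1 (chr13:48538239-48538260) lie next to one another on the minus strand. Mirlet7c-2 (chr15:85706616-85706637) and Mirlet7b (chr15:85707325-85707346) lie on the plus strand within the lncRNA gene Lncppara. let-7c has a second gene, Mirlet7c-1 (chr16:77599672-77599693, plus strand), beside Mir99a. Mirlet7e (chr17:17830366-17830387, plus strand) sits between Mir99b and Mir125a within the span of the protein-coding gene Spaca6. Mirlet7g (chr9:106178846-106178867, plus strand) lies within the span of Wdr82, and Mirlet7i (chr10:122985698-122985719, minus strand) within no annotated gene. let-7f has a second gene, Mirlet7f-2 (chrX:151912353-151912374, plus strand), beside Mir98 within the span of Huwe1, and the second gene of let-7a, Mirlet7a-2 on chromosome 9, lies beside Mir100 within Mir100hg. The gene table gives spans only, so exon or intron was not assigned. let-7a, let-7c and let-7f each have 2 genes for 1 mature sequence, and the arrays cannot divide their signal between those genes.

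All 8 arrays lay on 1 slide and were read in 1 scan. The diabetic arrays filled slide row 2 and the control arrays slide row 1, and a row effect therefore cannot be told apart from a group effect. Between 102 and 131 miRNAs were detected on the diabetic arrays and between 112 and 147 on the control arrays. The log2 of the 75th percentile by which an array was scaled, its brightness, was 7.78 to 8.91 on the diabetic arrays and 8.27 to 9.27 on the control arrays, with diabetic 4 the dimmest and control 2 the brightest. Of 7 muscle-specific or muscle-enriched miRNAs, 5 were detected on every array, miR-1, miR-133a, miR-133b and miR-206 among them, and miR-499 was detected on 0. In whole muscle, fewer cells of a type and less RNA per cell cannot be told apart.

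Every let-7 member was bright enough to be measured in every sample. Each was read by 2 probes of 10 spots, all 8 members were detected on 4 of 4 diabetic and 4 of 4 control arrays, and 98.2% of the spots used were well above background. None of the 160 member spots was saturated on any array. The spots of a probe had a median coefficient of variation of 7.70%, and the highest was 32.6%. Levels below are log2 values relative to each array's 75th percentile. Signal depends on the probe, so levels were compared between samples and not between members.

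No let-7 member passed the test for a difference between diabetic and control muscle. With limma, 0 of 8 members were higher and 0 of 8 lower at an adjusted p of 0.05, and 0 of 8 had an unadjusted p under 0.05, which 21 of the 126 tested miRNAs had (16.7%). Of the 126, 6 passed (4.76%), all 6 higher and 0% lower, with miR-29c the strongest (log2 difference 1.25, SE 0.20, limma adjusted p = 0.00642). The 8 differences ran from −0.47 to 0.079 with a median of −0.042, beside a median of −0.060 over all tested miRNAs. Of the 8, 5 were negative and 3 positive, but 7 were positive with arrays scaled over all mouse probes and 8 were negative without scaling. The side of 0 thus depended on the scaling for every member except let-7e. let-7a, let-7b, let-7c and let-7g turned positive with no scaling other than that over all mouse probes. Of those 1672 probes, 152 were detected on all arrays, and each member had an SE of 0.36 with that scaling. Leaving out control 2 also made all 8 negative. The diabetic and control arrays overlapped for all 8 members, whereas they did not overlap for 11 of the 126 miRNAs (8.73%), 10 with the diabetic arrays above (7.94%) and 1 with them below (0.794%).

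For let-7a, let-7d and let-7f, which each have a gene in the chromosome 13 cluster, the groups overlapped throughout. let-7a was at 0.78, 0.48, 0.34 and 0.68 on diabetic arrays 1 to 4 and at 0.98, 0.19, 0.54 and 0.90 on control arrays 1 to 4. The control arrays held both the highest and the lowest value, and all 4 diabetic values lay between them. The log2 difference was −0.083 (SE 0.23, 95% interval −0.59 to 0.42, limma adjusted p = 0.872). let-7d was at 0.62, 0.31, 0.24 and 0.64 on the diabetic arrays and at 0.65, −0.080, 0.47 and 0.62 on the control arrays. Again the diabetic values lay within the control range, with control 2 the lowest array. Its log2 difference was 0.037 (SE 0.23, 95% interval −0.46 to 0.54, limma adjusted p = 0.919). let-7f was at 0.71, 0.41, 0.35 and 0.48 on the diabetic arrays and at 0.31, 0.13, 0.49 and 0.70 on the control arrays. Unlike let-7a and let-7d, which were at or near their highest level on control 1, let-7f was low there. The spots of its brighter probe had a coefficient of variation of 30.7% on that array. The dimmer let-7f probe was at −1.93 there, against −2.43, −2.08 and −1.89 on controls 2 to 4. Set against the mean of the other members on each array, let-7g and let-7i were also lowest on control 1. Their brighter probes had coefficients of 6.78% and 7.75% there, and the dimmer let-7a probe had 29.6%. The part of spot spread in the low let-7f value was not tested. The log2 difference of let-7f was 0.079 (SE 0.20, 95% interval −0.37 to 0.53, limma adjusted p = 0.869).

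let-7b and let-7c, which have neighbouring genes on chromosome 15, had the same order of control arrays as let-7a. let-7b was at 0.70, 0.23, −0.037 and 0.74 on the diabetic arrays and at 1.02, −0.031, 0.50 and 0.93 on the control arrays. Its lowest diabetic and lowest control values were nearly equal, and controls 1 and 4 lay above every diabetic array. The log2 difference was −0.20 (SE 0.28, 95% interval −0.82 to 0.42, limma adjusted p = 0.792), the widest interval of the family. It was −0.41 without control 2 and −0.050 without diabetic 3. let-7c was at 0.77, 0.35, 0.15 and 0.61 on the diabetic arrays and at 0.92, 0.030, 0.42 and 0.80 on the control arrays. All diabetic values lay within the control range. Its log2 difference was −0.075 (SE 0.25, 95% interval −0.62 to 0.47, limma adjusted p = 0.886).

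The solitary hairpins let-7g and let-7i varied least over the 8 arrays, with SDs of 0.18 and 0.16. let-7f, whose hairpins have neighbours, was next at 0.19. let-7g was at 0.11, −0.21, −0.31 and −0.16 on the diabetic arrays and at −0.082, −0.42, −0.11 and 0.070 on the control arrays. Its log2 difference was −0.010 (SE 0.20, 95% interval −0.45 to 0.43, limma adjusted p = 0.963). let-7i was at 0.66, 0.43, 0.39 and 0.54 on the diabetic arrays and at 0.51, 0.16, 0.46 and 0.65 on the control arrays. In both, control 2 was the lowest of the 8 arrays and diabetic 1 the highest. The log2 difference of let-7i was 0.062 (SE 0.20, 95% interval −0.37 to 0.49, limma adjusted p = 0.886).

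**Figure D1:**
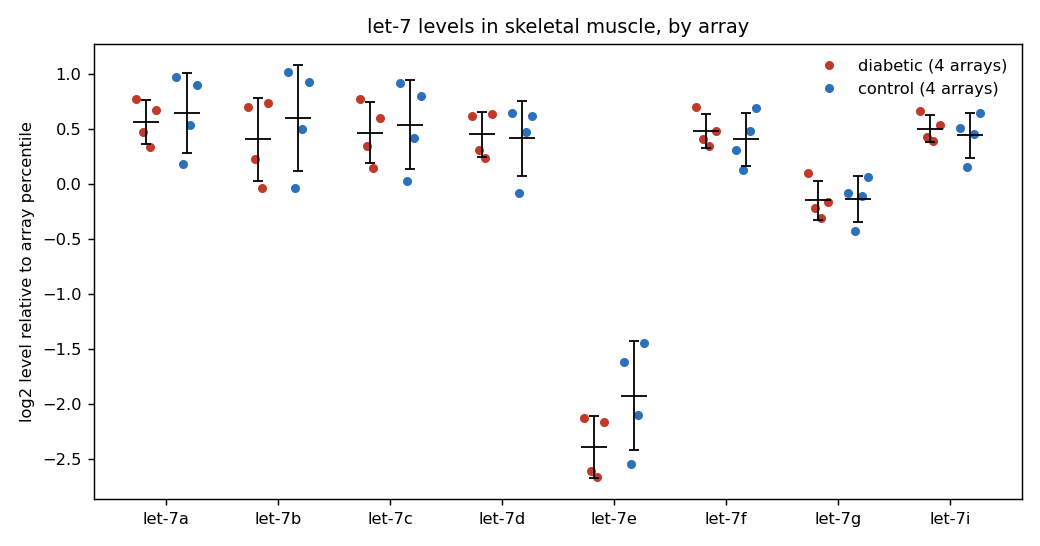
Log2 level (vertical axis, relative to each array's 75th percentile) of the 8 let-7 members (horizontal axis) on 4 diabetic (red) and 4 control (blue) arrays, in replicate order from left to right. Bars show mean and SD, n = 4; the groups overlap for every member, and heights of different members are not comparable because their probes differ.

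let-7e had the lowest difference of the family. It was at −2.13, −2.61, −2.66 and −2.16 on the diabetic arrays and at −1.61, −2.54, −2.10 and −1.44 on the control arrays. Diabetic 2 and 3 lay below every control array, and controls 1, 3 and 4 lay above every diabetic array, so the overlap came from control 2. The mean was −2.39 ± 0.28 in diabetic and −1.92 ± 0.50 in control muscle (SD, n = 4), which gave a log2 difference of −0.47 (SE 0.27, 95% interval −1.06 to 0.13, limma adjusted p = 0.445) and rank 32 of 126 by p. Before scaling, the mean intensities of let-7e were 82.1, 78.6, 65.3 and 49.0 on the diabetic arrays and 100.5, 106.2, 78.5 and 120.3 on the control arrays. Its brighter probe gave a difference of −0.46. The other probe gave −0.51 but was dim, with 0 of 10 spots well above background on diabetic 4 and 5 of 10 on diabetic 3. The difference ran from −0.67 without control 2 to −0.31 without control 4, and it was −0.14 with arrays scaled over all mouse probes. It was −0.24 with normexp background correction, whose offset shrinks the differences of dim miRNAs, and let-7e had the lowest mean intensities of the family.

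Across the 8 members the 2 probes of a miRNA gave log2 differences that lay between 0.0032 and 0.12 apart. The sign was the same for 6 of 8 members. The exceptions were let-7a, with −0.10 and 0.020, and let-7i, with 0.075 and −0.011, whose values all lay near 0.

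**Figure D2:**
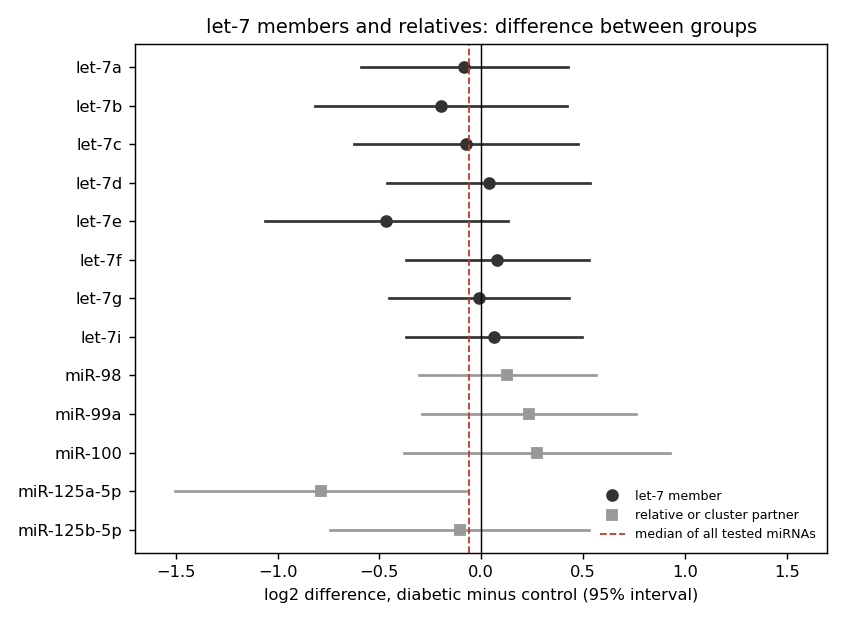
Log2 difference, diabetic minus control, with its 95% limma interval for the 8 let-7 members (circles), for miR-98 and for 4 cluster partners (squares). The dashed line marks the median of all 126 tested miRNAs, −0.060; the interval of miR-125a-5p alone lies wholly below 0, and its adjusted p was 0.237.

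The family moved between arrays mostly as the tested miRNAs in general did. After each member was centred on its own mean over the 8 arrays, the mean of the 8 members was 0.19, −0.16, −0.28 and 0.086 on diabetic arrays 1 to 4 and 0.25, −0.41, −0.0015 and 0.32 on control arrays 1 to 4. The lowest array was control 2, also the brightest, and the highest was control 4. The median over all tested miRNAs on the same scale was 0.17, −0.062, −0.17 and 0.084 on the diabetic arrays and 0.19, −0.37, −0.026 and 0.21 on the control arrays. The 2 profiles were never more than 0.11 apart. Both share the scaling of each array, and the median includes the 8 members, so part of this closeness is built in. The part of array brightness in these values was not tested.

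**Figure D3:**
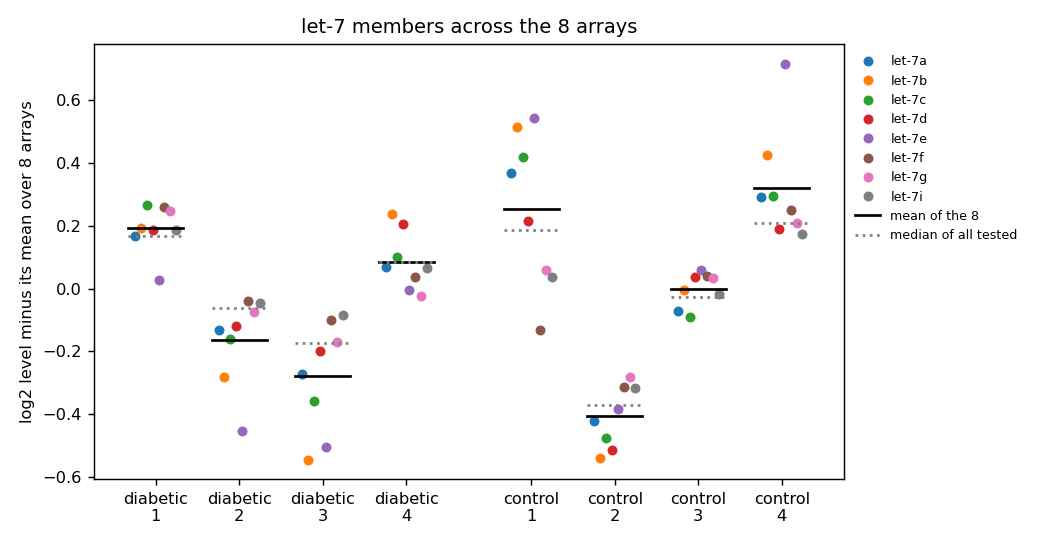
Log2 level of each let-7 member minus its own mean over the 8 arrays (vertical axis), by array, with the mean of the 8 members (solid bars) and the median of all tested miRNAs (dotted bars). All 8 members are below 0 on diabetic 2, diabetic 3 and control 2. On control 1 let-7f, at −0.13, stands below let-7e, at 0.54. The brighter let-7f probe had a spot coefficient of variation of 30.7% on control 1, and its part in that value was not tested.

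The control arrays were the more variable for every member. The SD over 4 arrays had a median over members of 0.20 in the diabetic and 0.35 in the control group, and the control SD was the larger in 8 of 8. The same held for 113 of the 126 tested miRNAs, with median SDs of 0.23 in the diabetic and 0.43 in the control group.

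Members differed in how closely they followed one another. The root mean square difference between 2 centred profiles was smallest for let-7a and let-7c, at 0.055, and for let-7g and let-7i, at 0.056. let-7f followed let-7i at 0.073 and let-7g at 0.078. The largest values all involved let-7e, with 0.36 against let-7f, 0.34 against let-7i and 0.32 against let-7g, and let-7e was nearest to let-7b, at 0.17. Over all 8 arrays, profiles did not follow sequence closely. let-7a and let-7c differ by 1 base and so do let-7a and let-7f, yet the let-7a and let-7f profiles were 0.20 apart, and let-7f and let-7i differ by 4 bases. The 4 pairs that differ by 1 base ran from 0.055 to 0.23, and the 8 pairs that differ by 2 bases ran from 0.056 to 0.36. Control 1 weighed on these values. Without it the let-7a and let-7f profiles were 0.073 apart. The brighter let-7f probe had a spot coefficient of variation of 30.7% on control 1. The brighter probes of let-7g and let-7i, also lowest there relative to the other members, had 6.78% and 7.75%. The part of spot spread in these profiles was not tested. The median difference between let-7a, let-7b or let-7c and let-7f, let-7g or let-7i was 0.20 over all arrays but 0.12 without control 1, against 0.12 within let-7a, let-7b and let-7c in either case. These 2 sets of members were picked after the values were seen.

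**Figure D4:**
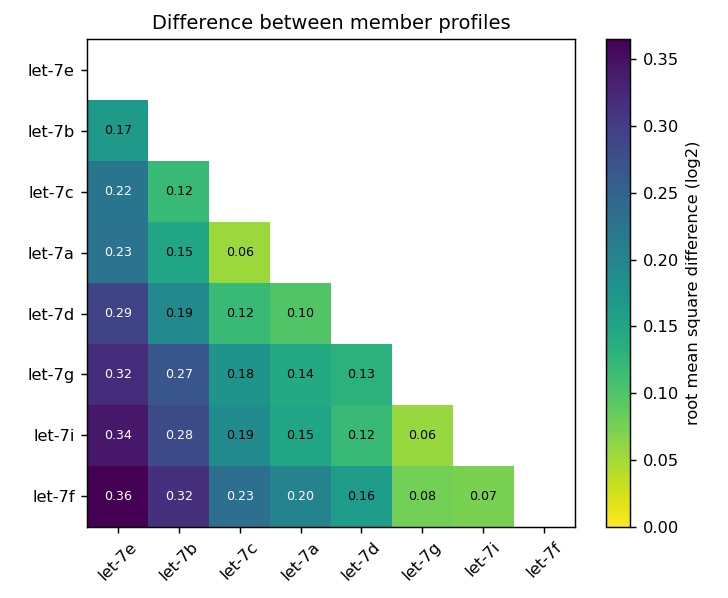
Root mean square difference (log2, colour and printed value) between the profiles of each pair of let-7 members over the 8 arrays, each centred on its own mean. let-7f, let-7g and let-7i form the pale corner at 0.06 to 0.08, and let-7e has the darkest cells, up to 0.36.

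Relative to the other 7 members of the same array, let-7e was the single member whose groups did not overlap. Centred on its mean over the 8 arrays, let-7e minus the mean of the others was −0.19, −0.33, −0.26 and −0.10 on diabetic arrays 1 to 4 and 0.33, 0.025, 0.070 and 0.45 on control arrays 1 to 4. All 4 diabetic values lay below all 4 control values, with a difference of −0.44. For the other 7 members this relative difference ran from −0.13 for let-7b to 0.18 for let-7f, and their groups overlapped. let-7e was singled out after its values were seen, so no test is given. Set against the mean of the 8 members in the same way, 22 of the 118 tested miRNAs outside the family did not overlap between groups (18.6%), 5 of them with the diabetic arrays below (4.24%). The separation of 1 of 8 members was not tested against either share. A ratio of this kind shows an unequal difference within the family and not which member differed.

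Marker levels of other cell types are given beside let-7e. For the 5 measured of 6 smooth muscle and fibroblast miRNAs, the summed level, relative to the array percentile on the linear scale, was 0.549 to 0.571 on the diabetic arrays. On control arrays 1 to 4 it was 0.921, 0.607, 0.575 and 0.913, and controls 1 and 4, which had the highest let-7e, also had the highest sums. Control 2 had a higher sum than control 3 but a lower let-7e level. Of the 4 members of this list that were tested 0 passed (limma). In this list miR-143, miR-199b and miR-214 were detected on 8 arrays, miR-199a-5p on 7 and miR-145 on 0. The log2 differences were −0.030 for miR-143, −0.45 for miR-199b, −0.54 for miR-214 and −0.66 for miR-199a-5p. The 5 leukocyte miRNAs had sums of 0.189 to 0.639 on the diabetic arrays and 0.333 to 2.00 on the control arrays, highest on control 2, with miR-150 detected on 0 arrays. The 7 muscle miRNAs had sums of 103.8, 53.0, 87.9 and 96.3 on control arrays 1 to 4 and 78.3 to 107.3 on the diabetic arrays. Among the controls, that sum too was highest on controls 1 and 4, as was the median of all tested miRNAs. The endothelial sum was highest on controls 3 and 4, and the erythroid sum on control 2. The liver list, miR-122 alone, was at 0.036, 0.016, 0.016 and 0.126 on control arrays 1 to 4, with controls 2 and 3 at the floor. It too was highest on controls 1 and 4 among the controls, and it ran from 0.018 to 0.079 on the diabetic arrays. The part of any cell type in the let-7e values was not tested.

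**Figure D5:**
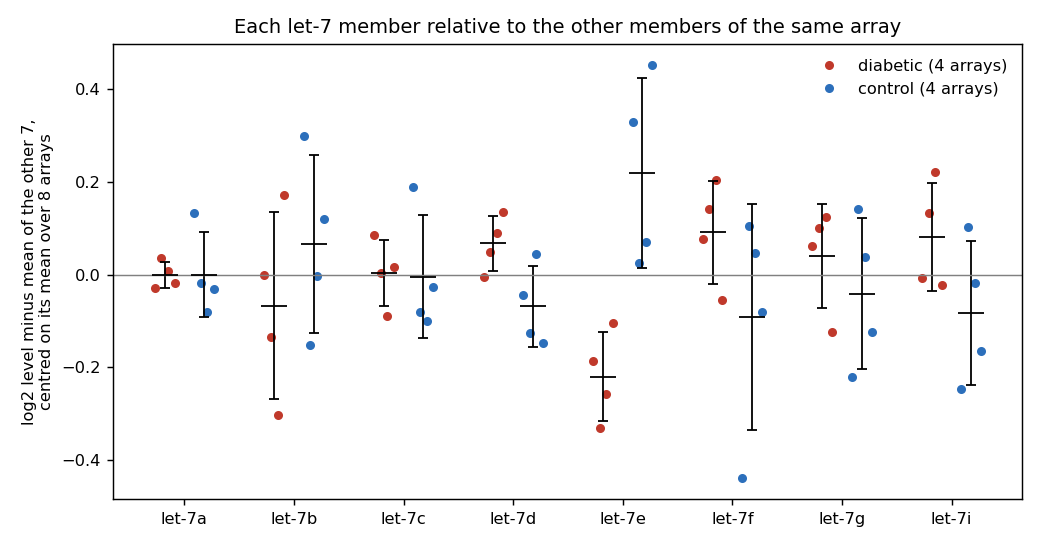
Log2 level of each let-7 member minus the mean of the other 7 on the same array, centred on its mean over the 8 arrays (vertical axis), for 4 diabetic (red) and 4 control (blue) arrays, with mean and SD (n = 4). For let-7e the diabetic arrays lie at −0.33 to −0.10 and the control arrays at 0.025 to 0.45; the groups of the other 7 members overlap.

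The let-7e hairpin shares its locus with miR-99b and with miR-125a, which has another seed, that of the lin-4 family of Caenorhabditis elegans. miR-125a-5p was at −4.59, −5.56, −5.91 and −5.47 on the diabetic arrays and at −3.97, −5.22, −4.63 and −4.56 on the control arrays. Diabetic 2, 3 and 4 lay below every control array. It was detected on 2 of 4 diabetic and 4 of 4 control arrays, and its log2 difference of −0.79 (SE 0.33, unadjusted p = 0.0332) did not pass (limma adjusted p = 0.237). With normexp background correction, whose offset shrinks the differences of dim miRNAs, the difference was −0.031. The floor to which low levels were raised lay at −5.95, near the diabetic 3 value. The difference was −0.53 with the floor at the 5th percentile, −0.47 with outlier spots kept and −0.36 with the mean of the probes' log2 values. It was negative in all 23 alternatives that tested it, down to −1.05 without diabetic 1. The third product of this locus, miR-99b, was detected on 0 arrays and was not tested.

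The partners of the other let-7 hairpins gave intervals on both sides of 0. miR-99a, beside a let-7c gene, had −1.28 ± 0.19 in diabetic and −1.52 ± 0.41 in control muscle (SD, n = 4), a difference of 0.23 with an SE of 0.24 (limma adjusted p = 0.699). miR-100, beside a let-7a gene and close in sequence to miR-99a, had −2.11 ± 0.26 in diabetic and −2.38 ± 0.61 in control muscle (SD, n = 4), a difference of 0.27 with an SE of 0.30 (limma adjusted p = 0.699). Without control 2 these differences were 0.051 for miR-99a and 0.023 for miR-100. miR-125b-5p, whose genes lie farther along the miR-99a and miR-100 loci, differed by −0.11 with an SE of 0.29 (limma adjusted p = 0.872), and by 0.16 without control 1. Of 9 partner strands on the array 4 were tested, 0 passed in either direction, and 4 were detected on 0 arrays.

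Little signal came from the rest of the family's hairpins. The other strands let-7b*, let-7c-1*, let-7c-2*, let-7d*, let-7f*, let-7g* and let-7i* were detected on 0 of 4 diabetic and 0 of 4 control arrays, so their hairpins were seen through the main strand alone. miR-98 was dim, detected on 3 of 4 diabetic and 1 of 4 control arrays. Its level was −4.82, −5.10, −4.90 and −4.86 on the diabetic arrays and −4.95, −5.26, −5.18 and −4.79 on the control arrays. The groups overlapped, and the log2 difference was 0.13 (SE 0.20, limma adjusted p = 0.794). miR-202-3p, a let-7 relative whose bases 2 to 8 are not the let-7 seed in RefSeq, was detected on 0 of 4 diabetic and 1 of 4 control arrays and had no test.

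Outside the family and its partners, the 5 of 113 tested miRNAs whose profile over the 8 arrays lay closest to the family mean were miR-30d, miR-126-3p, miR-210, miR-23a and miR-378*. Their root mean square differences from the family profile were 0.105 to 0.121, beside 0.052 to 0.23 for the members themselves and a median of 0.31 for the tested miRNAs outside the family. The family profile contains each member itself, which lowers the values of the members, so the ranges are not like for like. The log2 differences of these 5 ran from −0.22 for miR-23a to 0.055 for miR-30d, with limma adjusted p-values of 0.699 to 0.886.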

How the data were processed

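Per the labels' protocols, 100 ng of total RNA was labelled for each array. Per the file headers, the deposited values are spot intensities from Feature Extraction 10.5, after subtraction of a detrended background and with no normalization between arrays. The deposited files also hold raw median intensities, a total intensity per miRNA and flags of 0 or 1, per the file headers. The labels give no test. Processed intensities of non-outlier spots were averaged per probe, scaled to each array's 75th percentile among 152 probes that were detected throughout (at least 50% of spots well above background), averaged per miRNA, raised to a floor (the 1st percentile of detected levels) and converted to log2. The 126 of 567 mouse miRNAs detected on at least 4 arrays were tested with limma 3.58.1 in R 4.3.3, with Benjamini-Hochberg adjustment over all 126 and a threshold of 0.05. The number of arrays limits the precision.

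The script was tested on simulated data. Because the deposited files have no mean-intensity column, normexp used the median intensity. Named miRNAs were the 8 members, other let-7 strands, miR-98, miR-202, the miR-99, miR-100 and miR-125 partners and the 5 miRNAs nearest to the family profile. Members and lists were chosen with earlier results of these data known. Alternatives covered scaling, background, summaries, filter, floor, replicate block, array weights, variance trend and leaving out each array. Figures were drawn with matplotlib 3.10.9.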

Additional observations from a re-analysis of the deposited data

How the results depend on the processing

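In all 24 alternatives 0 of the 8 let-7 members passed in either direction, and let-7e kept a negative log2 difference, from −0.70 with array weights to −0.14 with scaling over all mouse probes (smallest limma adjusted p 0.100). let-7e relative to the other members ran from −0.50 to −0.21, and its groups did not overlap in 23 of 24. The exception was normexp background correction, at −0.21. Most of the alternatives could not change this outcome. A single scale factor per array cancels in this value, and filter, floor, block, weights and trend left it at −0.44. Leaving out an array cannot make separated groups overlap. Scaling over all mouse probes put the median of all tested miRNAs at 0.26 instead of −0.060, and that of the members at 0.28. With it let-7a was at 0.24, let-7b at 0.13, let-7c at 0.25, let-7g at 0.31 and miR-125b-5p at 0.22. let-7d was at −0.0077 with the median of the detected probes. With quantile normalization let-7d was at −0.060 and let-7i at −0.055, without scaling let-7d was at −0.069, let-7f at −0.027 and let-7i at −0.044, and with array weights they were at −0.14, −0.045 and −0.046. let-7g was at 0.014 with the scanner software's total signal. The changes of sign with scaling over all mouse probes came with the shift of the median of all tested miRNAs given above; the cause of the others was not tested.

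Leaving out single arrays gave ranges of −0.24 to 0.026 for let-7a, −0.41 to −0.050 for let-7b, −0.25 to 0.052 for let-7c, −0.13 to 0.11 for let-7d, −0.013 to 0.17 for let-7f, −0.11 to 0.058 for let-7g, −0.034 to 0.13 for let-7i, 0.056 to 0.21 for miR-98 and −0.29 to 0.16 for miR-125b-5p. The median of the members ran from −0.18 to 0.038. Over all tested miRNAs, 6 were called higher and 0 lower. Leaving out single arrays gave 2 to 7 higher and 0 to 3 lower. Without scaling 0 were higher, and with no filter 2. The lower calls were 1 with scaling over all mouse probes, the total signal or array weights, 2 with the median of the detected probes, the brightest probe or the filter for 8 arrays, and 3 with normexp or the replicate block.

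Same-numbered arrays, which share a slide column, correlated at 0.21, 0.082, 0.51 and −0.29 in their deviations from the group means, so the numbers were not taken to pair the samples. With the replicate block the log2 difference of let-7e stayed at −0.47 (limma adjusted p = 0.309), and 0 members passed. Signal over background limits miR-98, miR-125a-5p, the undetected strands and the dimmer probe of let-7e.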
